A study of Mus musculus with 78 samples.

Results

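5 protein-coding genes were followed across mouse cerebral arteries after carotid stenosis: 2210407C18Rik, Baiap2l2, Fbxl22, Tceal6 and Plk5. They are 5 of the 54532 genes in the expression table, and all 5 passed the filter on low values (at least 1 FPKM in at least 3 libraries, met by 15707 genes). They were chosen by their lower level after stenosis in these same libraries, so the stenosis differences below are a description and carry no test. Differences between diets and between days were not used to choose them and were tested.

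The samples were cerebral arteries of male wild-type C57Bl6 mice, kept for 3 months either with food at all times (AL, for ad libitum) or on intermittent fasting (IF) before surgery. Bilateral carotid artery stenosis (BCAS) narrows both carotid arteries and lowers blood flow to the brain for a long time, and control mice had a sham operation. Arteries were taken 1, 7, 14, 21 or 30 days later, which gave 20 groups and 78 RNA-seq libraries: for AL, 20 after sham surgery and 19 after BCAS, and for IF, 19 after sham surgery and 20 after BCAS. A group held 4 libraries, or 3 in the case of BCAS AL on day 1 and of sham IF on day 7. Day 7 rests on the group labels alone, since the treatment text does not list it.

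The products of these genes work in different places in the cell. F-box proteins such as Fbxl22 pick the proteins that an SCF ubiquitin ligase marks for breakdown, and in heart muscle Fbxl22 sits at the sarcomere Z-disc, where it acts on alpha-actinin and filamin C. Baiap2l2 belongs to the I-BAR proteins, which act on membranes together with actin. Baiap2l2 itself is best known from epithelia and from the stereocilia of inner ear hair cells. Tceal6 is an X-linked member of the TCEAL and BEX family, whose TCEAL proteins resemble the transcription elongation factor TFIIS. Plk5 is expressed in brain and belongs to the polo-like kinases, a family otherwise known for control of cell division. No role is given here for 2210407C18Rik.

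The genes lie on 5 different chromosomes of the mouse build GRCm38. Fbxl22 (ENSMUSG00000050503) spans 66508459 to 66514593 on the minus strand of chromosome 9, with 2 exons. Baiap2l2 (ENSMUSG00000018126) spans 79258195 to 79285537 on the minus strand of chromosome 15. Tceal6 (ENSMUSG00000031409) spans 135208687 to 135210687 on the minus strand of chromosome X, with 3 exons. Plk5 (ENSMUSG00000035486) spans 80356459 to 80365489 on the plus strand of chromosome 10. The gene 2210407C18Rik (ENSMUSG00000037145) spans 58608204 to 58616075 on the minus strand of chromosome 11.

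For 4 of the 5 genes RefSeq gave a promoter, and the 250 bases before each start site are shown so that the motifs of genes that were lower together can be compared. They are on GRCm38.p6, written 5′ to 3′ on the strand of the gene, with capitals marking matches to the motifs listed below. The regions are chr9:66514594-66514843 (minus strand) for Fbxl22, chrX:135210688-135210937 (minus) for Tceal6, chr10:80356209-80356458 (plus) for Plk5 and chr11:58613493-58613742 (minus) for 2210407C18Rik. The last of these lies inside the GRCm38 gene span given above, since the RefSeq start is downstream of the outermost annotated start. Baiap2l2 is named only.
Fbxl22: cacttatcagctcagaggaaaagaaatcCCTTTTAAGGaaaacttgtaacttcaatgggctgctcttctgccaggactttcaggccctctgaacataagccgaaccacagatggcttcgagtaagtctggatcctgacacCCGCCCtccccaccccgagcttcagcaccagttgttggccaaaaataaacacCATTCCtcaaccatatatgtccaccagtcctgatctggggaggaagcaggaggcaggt
Tceal6: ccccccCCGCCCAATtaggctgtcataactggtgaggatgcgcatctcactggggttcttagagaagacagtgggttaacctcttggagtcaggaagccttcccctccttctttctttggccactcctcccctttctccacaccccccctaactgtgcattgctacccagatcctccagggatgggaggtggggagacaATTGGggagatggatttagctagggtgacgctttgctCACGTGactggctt
Plk5: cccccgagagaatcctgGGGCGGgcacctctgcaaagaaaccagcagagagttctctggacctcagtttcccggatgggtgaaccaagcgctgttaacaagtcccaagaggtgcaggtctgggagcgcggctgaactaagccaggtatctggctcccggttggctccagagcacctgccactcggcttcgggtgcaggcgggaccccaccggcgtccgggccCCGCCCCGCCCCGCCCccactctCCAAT
2210407C18Rik: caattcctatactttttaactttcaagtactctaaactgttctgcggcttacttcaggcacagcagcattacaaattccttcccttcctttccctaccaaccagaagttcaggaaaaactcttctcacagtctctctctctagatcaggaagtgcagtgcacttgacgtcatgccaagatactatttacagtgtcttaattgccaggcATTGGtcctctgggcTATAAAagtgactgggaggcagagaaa

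The motifs searched, on both strands, were TATAAA for the TATA box, GGGCGG for the GC box, CACGTG for the E-box, CATTCC for the MCAT element, TGANTCA for the AP-1 element, CCAAT for the box of that name, and the CArG box, which is the site of serum response factor in muscle promoters. Fbxl22 held a CArG box at bases -222 to -213 and an MCAT element at bases -58 to -53, counted back from the start site. Among 32851 promoters of the same length, 1.47% held a CArG box and 12.6% an MCAT element. Fbxl22 also held a GC box, a motif of 32.7% of promoters. The 2210407C18Rik promoter held a TATA box at -27 to -22, as 12.4% of promoters did, and a CCAAT box, as 33.8% did. Tceal6 held an E-box at -14 to -9, found in 6.02% of promoters, beside a GC box and 2 CCAAT boxes, of which the upstream one overlaps the GC box. Plk5 held 4 GC boxes, 3 of them in an overlapping run, and a CCAAT box that ends at the last base before the start. None of the 4 held the AP-1 element, which 6.75% of promoters held, and no motif was present in all 4. Base composition ran from 43.2% GC in 2210407C18Rik and 50.4% in Fbxl22 to 55.6% in Tceal6 and 65.6% in Plk5, against a median of 52.4%.

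Expression is given as FPKM, the fragments of a gene divided by its length and by the depth of its library. Fragments summed over all genes lay between 14601572 and 25944175 per library, and 1 FPKM of a 1 kb gene stood for 15.1 to 26.8 fragments. The depth used for scaling was not exactly this sum. In sham AL day 7 replicate 4, with 14601572 fragments, 1 FPKM stood for 16.3, and in sham IF day 7 replicate 2, with 15421279, for 15.1. Acta2, the smooth muscle actin that defines the artery's muscle layer, lay between 1757 and 7630 FPKM. None of the 11 smooth muscle or 10 endothelial markers was at 0 in all libraries. That held for the markers of every cell type list used here, so it does not identify the tissue. The pituitary marker Gh lay between 0.366 and 4974 FPKM. In 3 libraries genes under 300 bases took 0.279% to 0.322% of fragments, against 0.056% to 0.106% elsewhere. These were replicate 2 of BCAS AL on day 1 and replicates 2 and 4 of sham AL on day 7. Leaving them out made each of the 5 stenosis differences under AL larger in size, as given below. In bulk tissue, fewer cells of a type and less RNA per cell cannot be told apart.

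Fbxl22 was the most abundant of the 5, with a median of 26.0 FPKM over all libraries against medians of 1.63 to 2.63 for the others. In sham AL it lay between 12.5 and 44.7 FPKM with a median of 28.9, and in BCAS AL between 11.2 and 33.2 with a median of 21.8. In sham IF it lay between 19.8 and 40.1 with a median of 27.3, and in BCAS IF between 8.34 and 31.7 with a median of 20.3. The ranges overlapped widely under both diets, while both BCAS medians lay below both sham medians. The arm means, in FPKM ± SD, were 30.2 ± 7.17 (n = 20) in sham AL, 28.2 ± 4.64 (n = 19) in sham IF, 22.0 ± 5.39 (n = 19) in BCAS AL and 20.6 ± 6.08 (n = 20) in BCAS IF. In that order, only the step from sham IF to BCAS AL exceeded the larger SD of its pair. The mean was 27.3% lower after BCAS under AL and 27% lower under IF, a log2 change of -0.44 ± 0.10 (SE) and -0.47 ± 0.10. All log2 changes here are of log2(FPKM + 1), which understates changes of genes near 1 FPKM.

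By day, Fbxl22 was lower in mean after BCAS in all 10 pairs of day and diet. On day 30 under AL the sham libraries held 29.4, 30.1, 31.6 and 37.6 FPKM and the BCAS libraries 13.4, 22.8, 22.8 and 26.6, with no overlap. On day 7 under IF the sham libraries held 23.2, 26.7 and 29.1 FPKM and the BCAS libraries 13.7, 17.7, 8.34 and 16.4, again with no overlap. The other 8 pairs overlapped. The difference was widest on day 7 under IF (-0.90 ± 0.24) and narrowest on day 21 under IF (-0.15 ± 0.22) and day 14 under AL (-0.18 ± 0.22). Fbxl22 overlaps Herc1, which lies on the opposite strand, over 317 bases from 66508459 to 66508775. Of its 50-base windows 6.9% are shared with that gene, and whether counting used strand is not given in the sources used here. Herc1 itself was at a median of 1.36 FPKM and differed by -0.09 ± 0.05 under AL and 0.02 ± 0.05 under IF.

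Baiap2l2 was higher in sham than in BCAS by 1.96-fold under AL and 1.78-fold under IF. Sham AL libraries lay between 1.19 and 4.24 FPKM with a median of 2.46, and BCAS AL libraries between 0.193 and 2.32 with a median of 1.28. Sham IF libraries lay between 1.20 and 3.05 with a median of 1.72, and BCAS IF libraries between 0.446 and 1.71 with a median of 0.909. Every BCAS library lay below the sham median of its diet. The arm means were 2.58 ± 0.66 FPKM in sham AL, 1.86 ± 0.55 in sham IF, 1.32 ± 0.60 in BCAS AL and 1.04 ± 0.43 in BCAS IF, and only the step from sham AL to sham IF exceeded the larger SD of its pair. The mean was 48.9% lower after BCAS under AL and 43.9% lower under IF, with log2 changes of -0.65 ± 0.09 and -0.48 ± 0.09.

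Baiap2l2 was lower in mean after BCAS on every day, with log2 changes between -0.79 and -0.55 on the 5 days under AL and between -0.59 and -0.26 under IF. Every BCAS library lay below every sham library of the same day and diet in 6 of 10 pairs: days 1, 14 and 21 under AL, and days 7, 21 and 30 under IF. On day 1 under AL the sham libraries held 4.24, 2.22, 2.78 and 2.67 FPKM and the BCAS libraries 1.63, 1.28 and 0.941. On day 30 under IF they held 2.09, 1.20, 1.61 and 2.13 against 1.02, 0.653, 0.917 and 0.691. Day 1 under IF was the pair with the smallest gap, at -0.26 ± 0.20.

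Tceal6 was lower in mean after BCAS under both diets, with the gap on days 7 to 30 and not on day 1. In sham AL it lay between 1.95 and 4.84 FPKM with a median of 3.20, and in BCAS AL between 1.38 and 3.88 with a median of 2.21. In sham IF it lay between 2.20 and 5.77 with a median of 3.03, and in BCAS IF between 0.716 and 3.65 with a median of 1.98. The arm means fell into a sham pair and a BCAS pair: 3.24 ± 0.94 FPKM in sham IF and 3.21 ± 0.78 in sham AL, then 2.37 ± 0.62 in BCAS AL and 2.21 ± 0.97 in BCAS IF. The step between the pairs exceeded the larger SD, and the steps within them did not. The mean was 26.2% lower after BCAS under AL and 31.9% lower under IF, with log2 changes of -0.30 ± 0.08 and -0.44 ± 0.08.

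On day 1 Tceal6 differed by 0.15 ± 0.20 under AL and -0.11 ± 0.18 under IF. From day 7 on the difference was negative under both diets, between -0.52 and -0.25 except on day 30 under IF, where it was -0.94 ± 0.18. In that last pair the sham libraries held 3.03, 3.84, 2.50 and 2.38 FPKM and the BCAS libraries 1.05, 0.716, 1.04 and 1.41, which do not overlap. The pairs on days 14 and 30 under AL did not overlap either, and the other 7 did. The counting of Tceal6 is uncertain, because 45.3% of its 50-base windows (482 of 1065) occur in other genes too, 422 of them in its neighbour in the family Tceal3. Tceal3 did not pass the test, at -0.02 ± 0.07 under AL and -0.05 ± 0.07 under IF.

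Plk5 had the smallest stenosis difference of the 5 and, on the scale of log2(FPKM + 1), the largest difference between diets. With limma-voom, a linear model of the fragment counts recovered from FPKM, its diet difference of 0.79 was about the size of that of 2210407C18Rik, at -0.80. In sham AL it lay between 1.47 and 3.62 FPKM with a median of 2.31, and in BCAS AL between 1.28 and 2.57 with a median of 1.67. In sham IF it lay between 2.00 and 5.01 with a median of 3.76, and in BCAS IF between 2.16 and 4.46 with a median of 3.33. The BCAS median was thus lower under each diet, but the BCAS IF median lay above the sham AL median. Arm means ran from 3.71 ± 0.75 FPKM in sham IF and 3.29 ± 0.58 in BCAS IF to 2.29 ± 0.51 in sham AL and 1.76 ± 0.32 in BCAS AL, and the first of these steps stayed within the larger SD of its pair. The mean was 23.2% lower after BCAS under AL and 11.4% lower under IF, with log2 changes of -0.26 ± 0.07 and -0.13 ± 0.07. Under AL the daily difference ran from -0.40 ± 0.16 on day 1 to -0.09 ± 0.14 on day 30, and under IF from -0.06 ± 0.14 on day 1 to -0.28 ± 0.14 on day 30. The libraries did not overlap on day 1 under AL, where sham held 2.44, 2.37, 2.32 and 1.73 FPKM and BCAS 1.36, 1.64 and 1.28. They overlapped in the other 9 pairs.

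The gene 2210407C18Rik had the widest stenosis difference of the 5 under both diets. In sham AL it lay between 1.05 and 7.99 FPKM with a median of 4.00, and in BCAS AL between 0.471 and 3.69 with a median of 1.73. In sham IF it lay between 1.25 and 4.44 with a median of 2.53, and in BCAS IF between 0.0335 and 3.62 with a median of 0.731. Arm means ran from 3.97 ± 1.47 FPKM in sham AL through 2.56 ± 0.91 in sham IF and 1.83 ± 1.05 in BCAS AL to 1.21 ± 1.03 in BCAS IF, with each step within the larger SD of its pair. The mean was 54.0% lower after BCAS under AL and 52.9% lower under IF, with log2 changes of -0.83 ± 0.13 and -0.78 ± 0.13.

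The difference in 2210407C18Rik varied between days. On day 1 under IF the BCAS libraries held 1.96, 3.62, 3.04 and 2.30 FPKM against 2.53, 2.95, 2.98 and 1.25 in sham, which overlapped, and the log2 change was 0.14 ± 0.28. On day 30 under IF they held 0.437, 0.0335, 0.413 and 0.449 against 4.43, 1.56, 3.26 and 2.80, with a log2 change of -1.55 ± 0.28. That was the lowest of the 20 group means, 0.333 FPKM, and its libraries held 11, 1, 9 and 14 fragments of the gene. On day 14 under AL the sham libraries held 6.07, 7.99, 4.36 and 4.18 FPKM, the highest group mean, and the BCAS libraries 1.79, 3.45, 0.471 and 1.61. Days 14 and 30 under AL and days 7, 21 and 30 under IF had no overlap, and in each the BCAS libraries were lower.

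**Figure D1:**
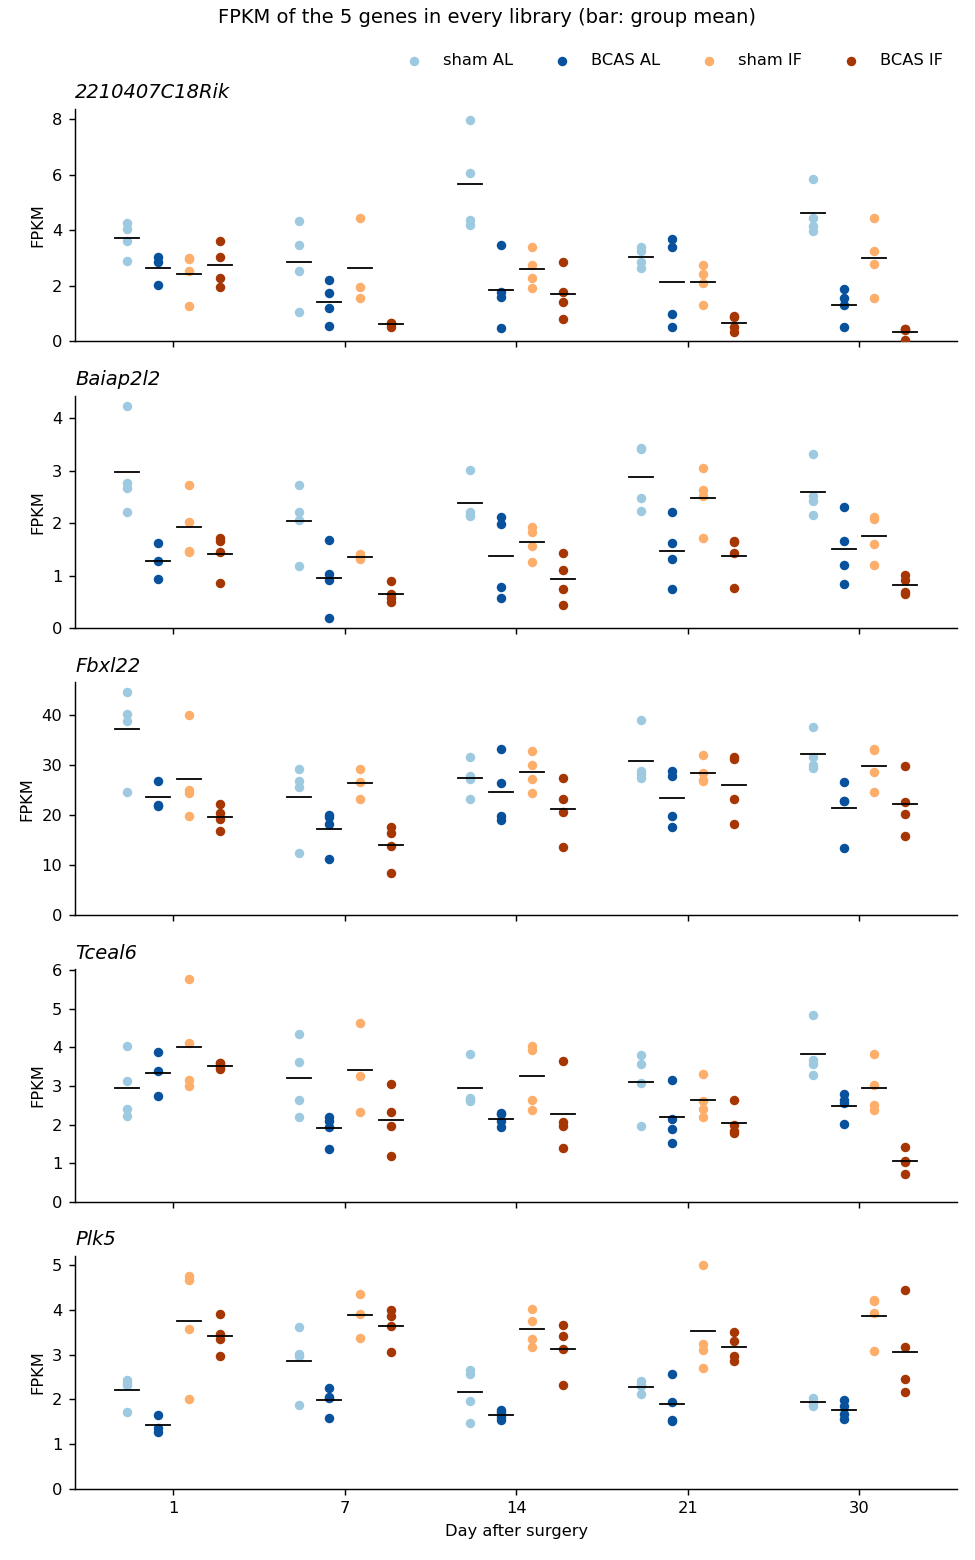
FPKM of the 5 genes in every library (vertical axes, linear and starting at 0) by day after surgery (horizontal axis), with light points for sham and dark points for BCAS, blue for AL and orange to brown for IF, and black bars for group means. The Plk5 points of IF lie mostly above those of AL, while the BCAS points of 2210407C18Rik on day 30 under IF lie between 0.0335 and 0.449 FPKM.

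**Figure D2:**
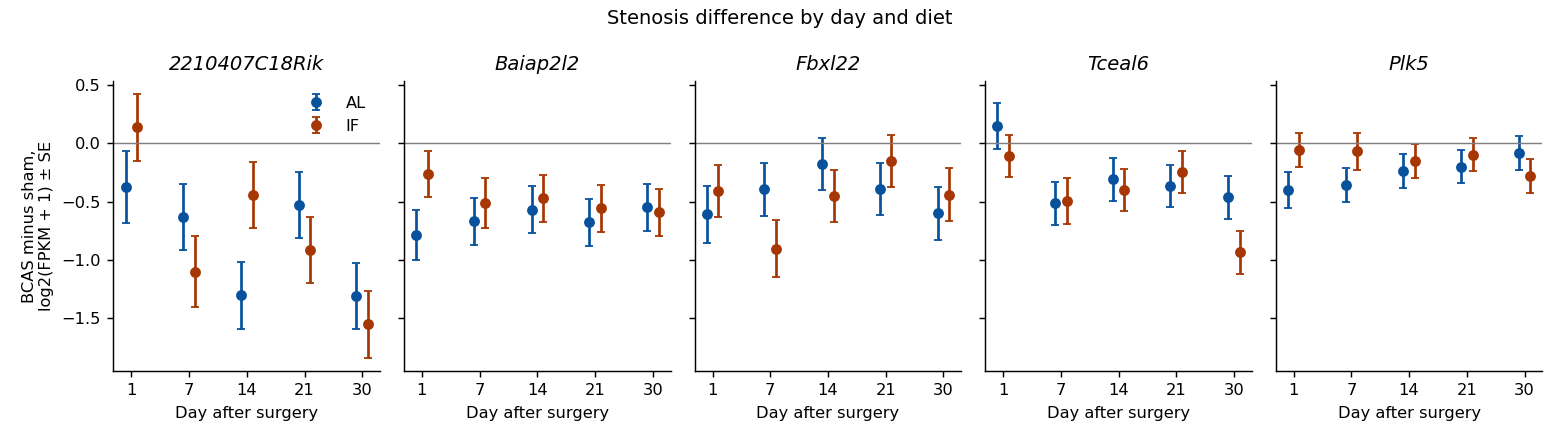
Difference between BCAS and sham in log2(FPKM + 1) ± SE from the model (vertical axis) by day after surgery (horizontal axis), blue for AL and brown for IF. Baiap2l2 stays between -0.79 and -0.26, while 2210407C18Rik spans 0.14 to -1.55.

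Read against all genes, these were extreme values by choice. Among the 12452 protein-coding genes tested, the rank of the stenosis change from the lowest up was 2 under AL and 4 under IF for 2210407C18Rik, and 3 and 8 for Baiap2l2. The ranks were 12 and 9 for Fbxl22, 29 and 13 for Tceal6, and 45 and 408 for Plk5. The median change of all genes was 0.00 under both diets. At an adjusted p under 0.05 in limma, 26 genes (0.166%) were lower after BCAS under AL and 37 (0.236%) under IF, against 129 higher (0.821%) and 82 higher (0.522%). The balance depended on the model: with the mean of the smooth muscle markers as a covariate, 96 of 257 called genes under AL and 185 of 333 under IF were lower, and without day 7 it was 10 of 32 under IF. Of the 5 genes, 4 were on the lower list under AL, without Tceal6, and 4 under IF, without Plk5. Fbxl22, Baiap2l2 and 2210407C18Rik lay on both lists, and the mean of all 5 was lower under both diets. These contrasts chose the genes, so their place on the lists describes the choice and is no test of it.

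Genes past the threshold in both diets numbered 6 (0.0382%), the other 3 being Oxct1, which encodes the enzyme that lets cells use ketone bodies, Cck, the peptide hormone cholecystokinin, and Cnnm2, a magnesium transport protein. Cck changed by -0.62 ± 0.12 and -0.45 ± 0.12 under AL and IF, Cnnm2 by -0.23 ± 0.04 and -0.18 ± 0.04, and Oxct1 by -0.13 ± 0.03 and -0.12 ± 0.03. The choice of the 5 fixed their own count, so nothing is read from it. Without day 7, Fbxl22 was no longer past the threshold under IF. When each single library was left out, Plk5 missed it under AL in 9 of 78 fits and Tceal6 reached it under AL in 15 of 78. In 8 other settings, Plk5 passed under AL in 4 and Tceal6 in 2. These fits share most libraries and use the contrasts that chose the genes, so the counts describe the lists and are no test.

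The daily change was negative on all 5 days under both diets for 3 of the 5, Baiap2l2, Fbxl22 and Plk5, a pattern of 67 genes (0.427%) in all. Every BCAS library lay below every sham library in 5 pairs of day and diet for 2210407C18Rik, 6 for Baiap2l2, 3 for Tceal6, 2 for Fbxl22 and 1 for Plk5. At least 2 such pairs were found for 513 genes (3.27%). Both patterns come from the daily stenosis differences that chose the 5 genes, so nothing is read from their standing against these shares. The difference between the stenosis changes of both diets, IF minus AL, was 0.05 ± 0.18 for 2210407C18Rik, 0.17 ± 0.13 for Baiap2l2, -0.04 ± 0.14 for Fbxl22, -0.14 ± 0.12 for Tceal6 and 0.12 ± 0.09 for Plk5, and it was not tested, since it comes from the contrasts used to choose the genes.

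The diets were compared over both surgeries, which asks whether 3 months of fasting moved the same genes. In this limma test 5984 of all genes (38.1%) passed, 2959 higher in IF (18.8%) and 3025 lower in IF (19.3%), so a called gene is common here. Plk5 rose in IF by 0.58 ± 0.05 on the log2 scale (adjusted p 5.15e-16), by 0.52 ± 0.07 in sham and 0.64 ± 0.07 after BCAS. Every IF library lay above every AL library of the same day and surgery in 8 of 10 pairs, all but sham on days 1 and 7. The share of all genes with as many such pairs was not counted, so nothing is read from this number. Plk5 was thus higher in IF and, in mean, lower after BCAS.

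The gene 2210407C18Rik fell in IF by 0.44 ± 0.09 (adjusted p 8.65e-05), by 0.46 ± 0.13 in sham and 0.41 ± 0.13 after BCAS. Baiap2l2 fell in IF by 0.25 ± 0.06 (adjusted p 0.00117), with changes of -0.34 ± 0.09 in sham and -0.17 ± 0.09 after BCAS. For both genes the diet and the stenosis differences were negative, and the lowest arm was BCAS IF. Fbxl22 did not pass, at -0.09 ± 0.07 with a 95% interval of -0.24 to 0.05 (adjusted p 0.323), nor did Tceal6, at -0.06 ± 0.06 with an interval of -0.18 to 0.05 (adjusted p 0.427). These intervals bound the size of a diet difference, and do not show that there was none. The called members numbered 3 of 5, against the 38.1% of all genes.

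**Figure D3:**
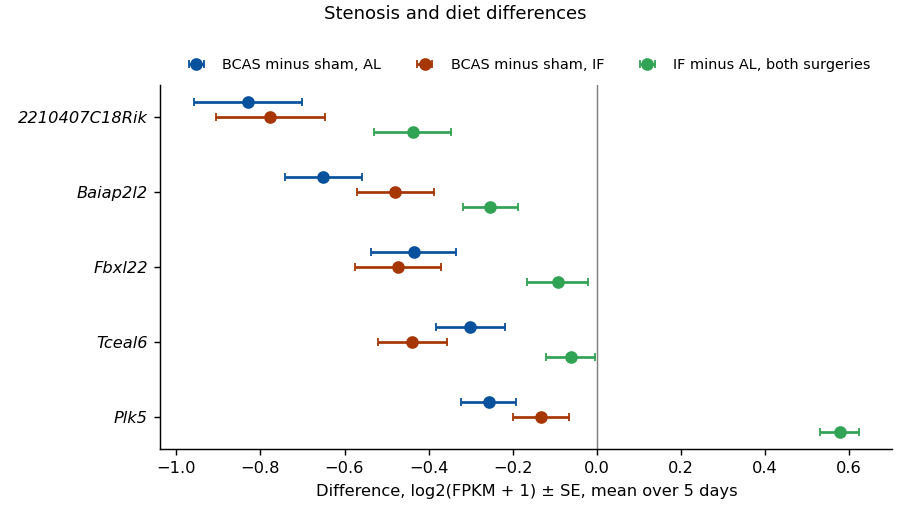
Differences in log2(FPKM + 1) ± SE (horizontal axis) for each gene (vertical axis), averaged over the 5 days: BCAS minus sham under AL (blue) and under IF (brown), and IF minus AL over both surgeries (green). Both stenosis differences lie below 0 for every gene, while the diet difference of Plk5 is 0.58 and that of 2210407C18Rik -0.44.

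Levels also differed between days, in an F test over the 4 arms of surgery and diet that 4944 genes (31.5%) passed. Tceal6 was at 3.45 FPKM on day 1 and between 2.49 and 2.66 on the other days, as the mean of the 4 group means (adjusted p 0.00672). The arms differed in this. Day 1 and the range of later days were 2.9 and 2.9 to 3.8 FPKM in sham AL, and 4.0 and 2.6 to 3.4 in sham IF. They were 3.3 and 1.9 to 2.5 in BCAS AL, and 3.5 and 1.1 to 2.3 in BCAS IF. The day means of Tceal6 thus include the later stenosis gap, which belongs to the choice of the gene. 2210407C18Rik moved between 1.88 on day 7 and 2.95 on day 14 (adjusted p 0.00621). Baiap2l2 was lowest on day 7, at 1.25, and highest on day 21, at 2.05 (adjusted p 0.00531). Fbxl22 was at 20.3 on day 7 and between 25.5 and 27.2 on the other days (adjusted p 0.00812). Plk5 did not pass (adjusted p 0.175), with means of 2.63 to 3.09.

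The low values of day 7 came with a low level of smooth muscle genes. The mean log2(FPKM + 1) of the 11 smooth muscle markers was 7.82 on day 7 and 8.12 to 8.25 on the other days, and Acta2 also differed between days (adjusted p 0.000321). Single libraries of day 7 differed in this mean, from 6.81 in sham AL replicate 4 to 8.13 in BCAS IF replicate 4. That sham AL library is 1 of the 3 rich in short genes and held the lowest Fbxl22 of sham AL, 12.5 FPKM. With this mean as a covariate the day test of Fbxl22 was no longer past the threshold (adjusted p 0.16), while those of Baiap2l2 (adjusted p 0.0231) and 2210407C18Rik (adjusted p 0.0184), which were also lowest on day 7, still passed. Without day 7 neither Fbxl22 (0.884) nor Baiap2l2 (0.167) passed. Over 86 alternatives the adjusted p of the day test ran from 0.00423 to 0.884 for Fbxl22 and from 0.00173 to 0.167 for Baiap2l2. Whether the diet difference changed with the day was tested too, and 66 genes passed (0.420%). None of the 5 did in limma, nor in limma-voom on the recovered fragments, and 1 of them, Tceal6, had an unadjusted p under 0.05 (0.00174, adjusted 0.119). Its diet difference ran from 0.20 ± 0.13 on day 1 to -0.54 ± 0.13 on day 30. On day 30 the AL and IF means of Tceal6 were 2.49 and 1.05 FPKM after BCAS, where the libraries did not overlap. In sham they were 3.84 and 2.94, with overlap. The adjusted p of Tceal6 was 0.0408 with the smooth muscle covariate and 0.0336 without day 7, within a range of 0.0336 to 0.245 over 86 alternatives.

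Cell type markers were set beside the stenosis differences. Of the 11 smooth muscle markers none passed the test under either diet, with medians of 0.07 under AL and 0.06 under IF and, for Acta2, changes of 0.04 and -0.07. Their summed level lay between 3697 and 14310 FPKM in sham AL (median 10340), 5681 and 13680 in BCAS AL (11130), 6758 and 13660 in sham IF (10920), and 6769 and 13990 in BCAS IF (10280). The median of the sum was thus higher after BCAS under AL and lower under IF, with ranges that overlapped. With the smooth muscle mean as a covariate the stenosis changes were as large or larger for 4 genes, at -0.53 and -0.52 under AL and IF for Fbxl22, -0.71 and -0.51 for Baiap2l2, -0.91 and -0.81 for 2210407C18Rik, and -0.34 and -0.46 for Tceal6. For Plk5 they were -0.24 and -0.12. Among 10 endothelial markers 5 rose under AL and 2 under IF, with medians of 0.21 and 0.09, and their summed level was 694 to 1058 FPKM in sham AL, 909 to 1413 in BCAS AL, 714 to 1141 in sham IF and 779 to 1276 in BCAS IF. The part of smooth muscle or of endothelial RNA in the differences of the 5 genes was not tested. The smooth muscle mean comes from the same libraries, and these contrasts chose the genes, so no cause is read from the fits with the covariate. Without the 3 libraries rich in short genes the changes under AL were -0.89 for 2210407C18Rik, -0.69 for Baiap2l2, -0.47 for Fbxl22, -0.36 for Tceal6 and -0.30 for Plk5.

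Relatives of the 5 genes were counted in lists by family, with the chosen gene taken out of its list, and are read against the 0.166% and 0.236% of all genes lower under AL and IF and the 0.821% and 0.522% higher. Of the other 4 I-BAR genes tested, none passed under AL, and 1, Mtss1l, fell under IF by 0.18 ± 0.05 (adjusted p 0.0461). Their medians were -0.01 under AL and -0.03 under IF. Of the other 3 polo-like kinases tested, none passed under AL, and 1, Plk1, which drives mitosis, rose under IF by 0.25 ± 0.07 (adjusted p 0.0491), from 0.601 ± 0.234 FPKM in sham IF to 0.908 ± 0.303 in BCAS IF. Medians here were 0.07 and 0.18. Of the other 9 TCEAL and BEX genes, none passed under either diet, with medians of -0.02 and -0.04. Nor did any of the other 16 leucine-rich F-box genes, with medians of -0.01 and -0.04.

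The partners of Fbxl22 were counted the same way. None of 7 genes of the SCF ligase core passed, and those with the smallest p were Rbx1, the RING subunit, under AL (0.08 ± 0.04) and Cops5, a subunit of the signalosome that removes Nedd8 from the ligase, under IF (-0.03 ± 0.03). None of 17 genes of the Z-disc and the smooth muscle dense body passed. The smallest p-values there belonged to Synpo under AL (0.10 ± 0.04) and the PDZ and LIM domain gene Pdlim5 under IF (-0.16 ± 0.05), with list medians of -0.01 and -0.03.

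How the 5 genes moved together was described within groups, after taking away each group's mean, so that surgery, diet and day did not enter. Over 78 libraries Pearson's r was 0.69 between Baiap2l2 and Fbxl22, 0.48 between 2210407C18Rik and Baiap2l2, and 0.46 between 2210407C18Rik and Fbxl22. These 3 formed the tightest set. Tceal6 was at 0.36 with 2210407C18Rik, 0.32 with Fbxl22 and 0.14 with Baiap2l2. Plk5 lay between -0.35 and -0.02 with the other 4. The libraries share depth and tissue make-up, and no p is given.

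With the mean of the smooth muscle markers, r was 0.78 for Fbxl22, 0.55 for Baiap2l2, 0.49 for 2210407C18Rik, 0.37 for Tceal6 and -0.22 for Plk5. No other of the 14 cell type lists reached 0.5 in size with any of the 5. The next were the macrophage and microglia list, at -0.47 with Fbxl22 and 0.42 with Plk5, and the fibroblast and meninges list, at -0.46 with Fbxl22 and -0.39 with 2210407C18Rik. The astrocyte list was at -0.46 with Fbxl22.

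Plk5 and Baiap2l2 are known from brain and from epithelia, so the markers of these cells are given beside them. Plk5 was at r 0.15 with the neuron list, 0.14 with the oligodendrocyte list and 0.06 with the astrocyte list. Of the 9 neuron markers tested, none passed the diet test or either stenosis test, with a diet median of 0.05. In the diet test 1 of 8 oligodendrocyte markers and 1 of 7 astrocyte markers rose in IF and none fell. Their diet medians were 0.10 and -0.01. The summed level of all 12 listed neuron markers lay between 13.5 and 32.3 FPKM over all libraries. The lists nearest to Plk5 were those of macrophages and microglia (r 0.42) and of choroid plexus and ependyma (0.34). Of the 9 macrophage and microglia markers, 4 rose in IF and none fell in the diet test, with a diet median of 0.14, against 18.8% of all genes higher in IF. Their summed level lay between 241 and 396 FPKM in sham AL, 278 and 382 in BCAS AL, 294 and 414 in sham IF, and 254 and 434 in BCAS IF. Of the 7 choroid plexus and ependyma markers 2 were tested, of which 1 rose and 1 fell in IF. The part of these cells in the diet difference of Plk5 was not tested. Single neuron markers had medians from 0.0836 FPKM for Slc17a6 and 0.146 for Rbfox3 to 1.42 for Camk2a and 15.4 for Stmn2. Baiap2l2 was at r -0.25 with the epithelium list, of which 3 of 6 markers were tested and none passed either stenosis test. The epithelial cell adhesion gene Epcam had a median of 0.239 FPKM and Cdh1 one of 25.8.

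**Figure D4:**
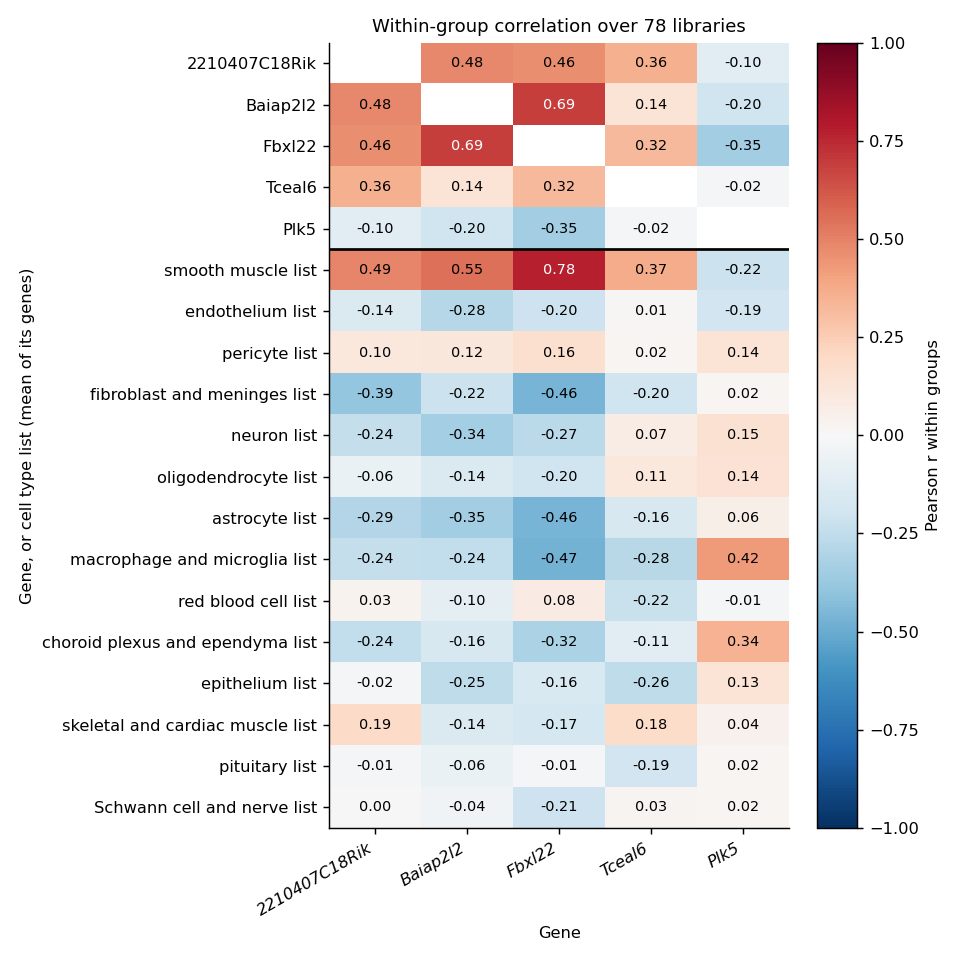
Pearson r over 78 libraries, after taking away each group's mean, of each of the 5 genes (columns) with the other 4 and with the mean of each cell type list (rows), from blue (-1) through white (0) to red (1). Fbxl22 and the smooth muscle list share the highest value, 0.78, and the Plk5 column is mostly pale or blue among the 5 genes.

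The protein-coding genes most like each member within groups were listed, 3 for each. For Fbxl22 they were Susd5 (r 0.87), Uba2, a subunit of the SUMO-activating enzyme (0.83), and Acta2 (0.82). For Baiap2l2 they were Susd5 (0.69), Fbxl22 (0.69) and the growth factor Fgf2 (0.67), and for 2210407C18Rik the LIM protein gene Csrp2 (0.65), Asb2, a ubiquitin ligase subunit that targets filamins (0.65), and the sphingosine-1-phosphate receptor S1pr3 (0.65). Tceal6 had lower values, with Apol6 (0.51), Ola1 (0.49) and the matrix protein gene Npnt (0.49), as did Plk5, with the transporter gene Slc7a4 (0.62), the Nogo receptor gene Rtn4r (0.60) and the atypical kinase gene Mapk4 (0.56). Susd5 and Uba2 fell after BCAS under IF, by 0.39 ± 0.10 (adjusted p 0.0490) and 0.28 ± 0.06 (adjusted p 0.0152), and did not pass under AL, at -0.28 ± 0.10 and -0.18 ± 0.06. Acta2 did not pass under either diet, at 0.04 ± 0.09 and -0.07 ± 0.09.

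Over the 20 group means, which do carry surgery, diet and day, the nearest genes were partly others. They were Klhl30 (0.86), Susd5 (0.85) and Baiap2l2 (0.84) for Fbxl22, and Asb11 (0.91), Fbxl22 (0.84) and Wtip (0.83) for Baiap2l2. For 2210407C18Rik they were the sulfotransferase gene Chst3 (0.85), Mtus2 (0.80) and the potassium channel gene Kcna5 (0.80), and for Tceal6 the kinesin gene Kifc3 (0.82), the proton pump gene Atp6v0c (0.80) and 2210407C18Rik (0.80). Plk5 had the highest values, with the cell adhesion gene Cadm4 (0.94), Oplah (0.93) and Inmt, a methyltransferase gene (0.93). The diet difference of these 3 was 1.46 for Inmt, 0.45 for Cadm4 and 0.23 for Oplah. It is given with no test, since likeness to Plk5 over group means that carry the diet favours genes higher in IF.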

How the data were processed

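The deposited table gives FPKM and a length for 54532 genes. The submitters' processing notes name DESeq 1.10.1 and no role for it. Aligner, counter and annotation are not given in the sources used here. GENCODE M21 holds 54409 of the identifiers, 98.3% at the same coordinates, so positions are on GRCm38. FPKM times length, divided by the step of 1 fragment in each library, gave whole fragments, within 0.05, for 100% of values under 1000 fragments. Their sum is the fragment total of a library. No 2 libraries were identical. Nothing beyond their titles says that libraries were separate animals, so p-values measure only the spread between these libraries.

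FPKM values are not counts. The 15707 genes that reached 1 FPKM in 3 or more libraries were fitted on log2(FPKM + 1) with limma 3.58.1 (trend, robust, statmod 1.5.0, R 4.3.3), all 78 libraries in 1 model of 20 group means. P-values were two-sided, adjusted by Benjamini-Hochberg over all genes and compared with 0.05. The steps were tested on simulated data. Pearson correlations within groups are descriptions.

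The members and gene lists were chosen with earlier results of these data known. Besides the 5 genes, the text names family genes past the stenosis test (or with the smallest p), the 3 protein-coding genes most like each member by each of 2 measures, and protein-coding genes lower in both diets. Tceal3, Herc1 and Acta2 are named for shared sequence or as a marker. Alternatives were a pseudocount of 0.1, no filter, median-of-ratios rescaling, limma-voom on recovered fragments, leaving out the 3 libraries rich in short genes, the mean of brain or of smooth muscle markers as a covariate, and each library left out in turn. Leaving out day 7 was added after seeing the data.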

Additional observations from a re-analysis of the deposited data

Results flagged for a closer look

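Among 90 groups of 4 libraries (each gene in each group), 4 had a single library far from the other 3, about the 1 in 20 that chance gives. In BCAS IF on day 30, replicate 2 held 0.0335 FPKM of 2210407C18Rik, which is 1 fragment, against 0.413 to 0.449 in the others. In sham AL on day 14, replicate 2 held 3.02 FPKM of Baiap2l2 against 2.14 to 2.22, and replicate 1 held 3.84 FPKM of Tceal6 against 2.60 to 2.68. In sham AL on day 21, replicate 3 held 39.0 FPKM of Fbxl22 against 27.3 to 28.7.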

How the results depend on the processing

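No paired analysis was possible, because the labels give each library its own number and link none across groups. The replicate numbers used here only tell the libraries of a group apart. The 10 stenosis differences of the 5 genes were negative in every setting run, as the choice of the genes favours. On scales that compress low values less they were wider: with a pseudocount of 0.1, 2210407C18Rik changed by -1.37 under IF and Baiap2l2 by -1.02 under AL and -0.81 under IF, and with limma-voom 2210407C18Rik changed by -1.25 and -1.49 and Baiap2l2 by -1.10 and -0.87 under AL and IF. With the smooth muscle covariate the diet test of Fbxl22 passed (-0.13, adjusted p 0.0209, range over 86 alternatives 0.0209 to 0.5), its day test did not (F 2.40, adjusted p 0.16), and the diet by day test of Tceal6 did (F 5.72, adjusted p 0.0408). Without day 7, the day tests of Baiap2l2 (F 2.61, adjusted p 0.167) and Fbxl22 (F 0.30, adjusted p 0.884) did not pass and the diet by day test of Tceal6 did (F 6.96, adjusted p 0.0336). The cause was not tested.

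Counts over all genes moved more. Genes called for stenosis numbered 155 under AL and 119 under IF, against 103 and 74 with no filter, 257 and 333 with the smooth muscle covariate and, under IF, 32 without day 7. The 4944 genes called for day became 3022 without day 7, and the 66 for diet by day became 25 with no filter, 281 with the smooth muscle covariate and 357 without day 7. With single libraries left out, stenosis calls ranged from 86 to 188 under AL, lowest without BCAS AL day 1 replicate 3, and from 77 to 162 under IF, lowest without BCAS IF day 1 replicate 1, and diet by day calls from 25 to 198. In these fits the diet, day and diet by day tests of the 5 genes stayed on their side of the threshold. Low counts limit 2210407C18Rik, at 1 to 202 fragments per library, and Tceal6, at 17 to 124.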
